A study of Homo sapiens with 6 samples.

Results

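TRIB3, DDIT3, CHAC1 and BBC3 are genes that cells switch on under lasting stress and whose products push a stressed cell towards death. They were followed here through H3K27ac, the acetylation of histone H3 at lysine 27 that marks active promoters and enhancers. Of 838 H3K27ac regions in the authors' deposited table, 5 belonged to these 4 genes. A region was counted when it overlapped one of the genes or, overlapping no gene, lay nearer to the boundary of one of them than to any other protein coding or lncRNA gene. TRIB3 had 2 regions and the other genes had 1 each.

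The samples came from KMS-11, KMS-12 and RPMI8226, 3 human multiple myeloma lines, which are established lines of malignant plasma cells and carry the genotype label WT. One culture of each line received 1 µM JQ1 for 72 h, and one received DMSO, the solvent of the drug, as its control. JQ1 is a small molecule that occupies the acetyl-lysine pocket of BET bromodomain proteins. There were 6 samples in all, with 1 sample for each line and treatment, so no line had a replicate.

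The table gives 1 log fold change for each region and line. These values were read as log2 of JQ1 over DMSO, although neither the base nor the direction is written in the file, and every statement that a mark was lower after JQ1 depends on that reading. It holds no counts, no level of a single sample and no error, so depth is unknown and no difference between lines could be tested. Every listed region is below 0 in all 3 lines and below -0.5 in at least 2 of them. Direction was therefore fixed by the way the table was made, and the 4 genes were themselves chosen by these fold changes, so their values are given as a description. Plasma cell identity could not be checked from a list of lowered regions. Of 8 plasma cell markers, 3 had a listed region (XBP1, IRF4 and MZB1), and 0 of 7 markers of B cells, T cells and myeloid cells had one.

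When protein folding in the endoplasmic reticulum fails, or amino acids run short, a set of kinases slows translation and allows the transcription factor ATF4 to be made. ATF4 switches on DDIT3, which encodes the transcription factor CHOP, and the factors together switch on TRIB3 and CHAC1. Plasma cells secrete large amounts of antibody and are known for their reliance on this stress response. BBC3, also called PUMA, is best known as a target of p53 and has also been linked to CHOP.

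The promoters of the 3 genes whose listed region held an annotated start are shown first, because these regions cover them in whole or in part. Each is the RefSeq window of GRCh38.p14 from 250 bases before the start to 50 bases after it, written 5′ to 3′ on the strand of the gene. Capitals mark TGATGNAA, a core of the composite element bound by ATF4 with C/EBP factors, and CCAAT and CCACG, the parts that make up the ER stress element, each on either strand.
TRIB3, chr20:381045-381344, plus strand: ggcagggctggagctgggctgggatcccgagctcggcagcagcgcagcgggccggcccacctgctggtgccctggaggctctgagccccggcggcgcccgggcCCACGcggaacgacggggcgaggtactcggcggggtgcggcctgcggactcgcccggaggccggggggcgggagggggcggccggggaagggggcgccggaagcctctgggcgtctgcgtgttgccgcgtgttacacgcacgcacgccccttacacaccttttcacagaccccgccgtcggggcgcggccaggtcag
DDIT3, chr12:57520468-57520767, minus strand: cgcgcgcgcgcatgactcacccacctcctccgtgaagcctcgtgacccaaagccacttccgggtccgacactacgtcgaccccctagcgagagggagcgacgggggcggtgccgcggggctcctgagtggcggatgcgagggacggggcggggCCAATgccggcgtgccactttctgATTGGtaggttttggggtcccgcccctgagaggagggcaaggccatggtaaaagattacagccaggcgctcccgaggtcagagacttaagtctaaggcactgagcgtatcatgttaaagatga
CHAC1, chr15:40953221-40953520, plus strand: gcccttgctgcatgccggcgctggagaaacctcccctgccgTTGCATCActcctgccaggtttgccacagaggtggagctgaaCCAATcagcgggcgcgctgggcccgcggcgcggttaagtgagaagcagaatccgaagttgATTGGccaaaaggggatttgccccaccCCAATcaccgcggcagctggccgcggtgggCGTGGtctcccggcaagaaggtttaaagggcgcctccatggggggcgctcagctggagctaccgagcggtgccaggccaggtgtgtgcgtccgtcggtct

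CHAC1 was the only one of the 4 genes with TGATGNAA in a RefSeq promoter window. Nothing outside these windows was searched, and no TRIB3 window reached that gene's annotated 5′ end. The match, TTGCATCA, lay on the opposite strand, 209 to 202 bases before the start. This core occurred in 3.62% of 34943 RefSeq promoter windows and in 2.45% of the 735 windows that a listed region touched. Among the other stress and death genes with a listed region, PPP1R15B, which encodes a subunit of the phosphatase that reverses the translation block, and SLC3A2, a subunit of amino acid transporters, also had one.
CHAC1, chr15:40953251-40953280, plus strand: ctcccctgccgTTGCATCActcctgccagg
PPP1R15B, chr1:204412026-204412055, minus strand: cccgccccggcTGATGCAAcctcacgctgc
The CHAC1 and PPP1R15B matches read the same 8 letters on opposite strands. The CHAC1 match lay inside its listed region, and the PPP1R15B match lay outside, since the region at PPP1R15B reached only 60 bases of that window. The SLC3A2 match was in a window that the listed SLC3A2 region did not reach.

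The whole ER stress element is CCAAT and CCACG with 9 bases between them on the same strand. It was in none of the 4 genes' windows, in 0.0773% of all windows and in 0.544% of those touched by a listed region. In DDIT3 the CCAAT that begins 97 bases before the start was followed, after the same spacing, by ccact in place of CCACG. This stretch and the other marked CCAAT of DDIT3 lay outside its listed region, which reached only 6 bases before the 5′ end. Without its last base, a form tried after the promoter had been read, the element was in 0.315% of all windows and in 1.63% of those touched by a listed region. CCAAT alone was in 34.6% of windows and CCACG alone in 38.1%. Among windows touched by a listed region the shares were 33.6% and 58.5%, so the single marks in the sequences above are common. TRIB3 had 1 CCACG and no CCAAT in its first window. No window of the 4 genes held TATAAA, found in 11.6% of all windows and in 6.39% of those touched by a listed region. None held the p53 element, found in 0.0286% of all windows. That element was searched as an exact match to the full consensus, which only 10 windows held, so its absence says little about BBC3. BBC3 alone had the E-box CACGTG, which is in 7.23% of windows. These are matches of letters in short windows and show nothing about binding.

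The TRIB3 windows were rich in C and G, at 75.3% to 77.0%, and the first held 38 CpG pairs, more than 90.1% of windows. DDIT3 had 63.3% and CHAC1 65.3%. The BBC3 window stood apart at 48.0%, with 5 CpG pairs.

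The regions differed in where they lay on their genes. The TRIB3 region (chromosome 20, 379892 to 381875) ran from 868 bases before the 5′ end of the gene to 1115 bases inside it, and held all 3 starts of the promoter table, which lie inside the annotated 5′ boundary. The printed window belongs to the first of them. The CHAC1 region (chromosome 15, 40952322 to 40953801) ran from 1149 bases before the 5′ end to 330 bases inside. Both covered the whole printed window. The DDIT3 region (chromosome 12, 57519459 to 57520523) lay almost wholly inside the gene, from 6 bases before its 5′ end to 1058 bases after it, and held 56 of the 300 printed bases. It also overlapped LOC128125814, an annotated protein coding gene within DDIT3, and reads cannot be divided between them. MBD6 begins 192 bases beyond the region on the far side of the DDIT3 start.

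BBC3 was the exception. Its region (chromosome 19, 47226300 to 47228323) began 4537 bases downstream of the 5′ end of the gene and ended 6560 bases downstream, inside the gene, and its nearest start in the promoter table was 4344 bases away. The second TRIB3 region (chromosome 20, 402151 to 402523) lay outside the gene, 4592 bases past its 3′ end and 20808 bases from the nearest TRIB3 start in the promoter table. It was given to TRIB3 by distance alone, and whether it acts on TRIB3 or on another gene was not tested. In all, 3 of the 5 regions held a start of their own gene, and 47.7% of all 838 regions held a start of some gene.

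**Figure D1:**
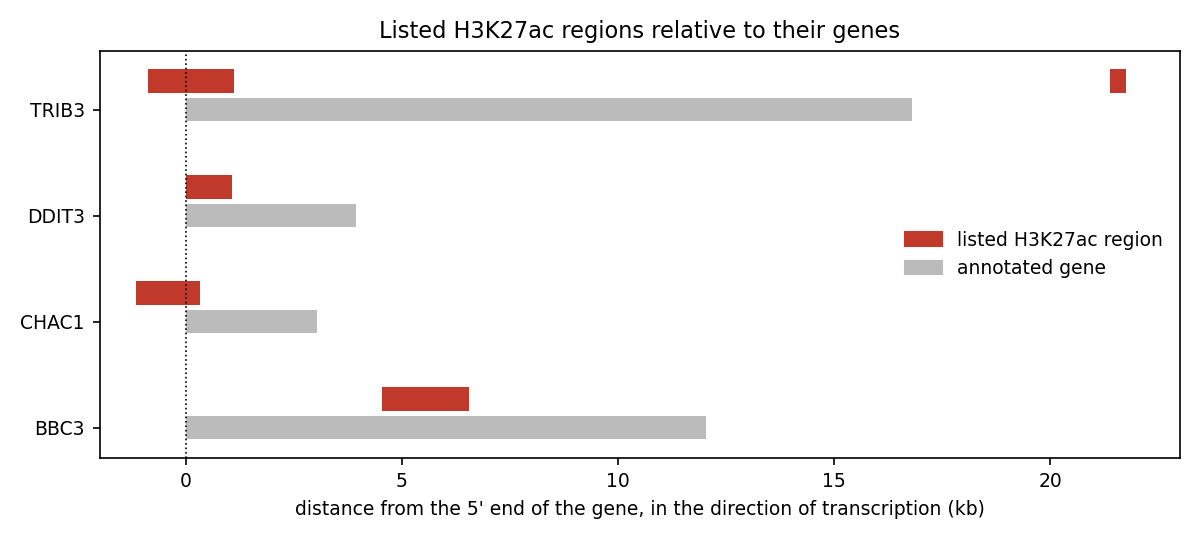
Position of the 5 listed H3K27ac regions (red) on their annotated genes (grey), in kb from the 5′ end of each gene in the direction of transcription. The TRIB3, DDIT3 and CHAC1 regions cover the 5′ end, the BBC3 region lies 4537 to 6560 bases inside the gene, and the second TRIB3 region lies 4592 bases past the gene's end.

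A pair of microRNA genes on opposite strands, MIR3190 on the plus strand and MIR3191 on the minus strand, lay within the BBC3 region. Their mature sequences are printed as the annotated transcripts inside this region, with the seed (bases 2 to 8) in capitals.
hsa-miR-3190-3p, chr19:47226988-47227010: uGUGGAAGguagacggccagaga
hsa-miR-3191-5p, chr19:47226990-47227011: cUCUCUGGccgucuaccuucca
hsa-miR-3191-3p, chr19:47226952-47226974: uGGGGACGuagcuggccagacag
No 2 of these seeds were alike. The H3K27ac value of the region cannot be divided between BBC3 and either microRNA gene. MIR616, inside DDIT3, lay 200 bases outside the DDIT3 region.

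The question put to these regions was how far H3K27ac at each gene was lower with JQ1 than with DMSO, and whether the 3 lines had it lower to the same degree. TRIB3 encodes a pseudokinase that binds AKT and CHOP and has been linked to the death of cells under ER stress. At its 5′ end the authors' deposited table gave a log2 fold change of -3.42 in KMS-12, -1.53 in KMS-11 and -0.97 in RPMI8226. On the log2 reading 9.36%, 34.7% and 50.9% of the DMSO signal remained, in the same order of lines. This region was 2nd, 10th and 43rd lowest of 838 in those lines. Its highest rank in any line was thus 43, against 320 for DDIT3, the next of the 5 regions, also in RPMI8226.

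The second TRIB3 region was 373 bases wide, narrower than all but 3 listed regions, and the median width was 1165 bases. In the authors' deposited table it had -2.17 in KMS-12, -0.59 in KMS-11 and -0.28 in RPMI8226. It was the 10th lowest region in KMS-12, but 544th in KMS-11 and 688th in RPMI8226. H3K27ac there was 77.8% lower with JQ1 than with DMSO in KMS-12 and 17.6% lower in RPMI8226. The next listed region to the right lay 5581 bases on, at RBCK1, a gene of a ubiquitin ligase complex, for which the authors' deposited table had -1.70 in KMS-12, -0.60 in KMS-11 and -0.19 in RPMI8226. These 3 regions lay within 29769 bases, and in each the KMS-12 value was the lowest. Having another listed region within 25 kb was true of 13.4% of the table, and the median distance to the nearest other region was 404027 bases.

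DDIT3 encodes CHOP, the factor that turns a lasting stress response towards death. The authors' deposited table listed -1.48 in KMS-12, -0.78 in KMS-11 and -0.63 in RPMI8226 for its region. H3K27ac was thus 64.1%, 41.7% and 35.4% lower with JQ1 than with DMSO, and the region ranked 64th, 278th and 320th. With the 5′ region of TRIB3 it was one of 2 of the 5 that passed -0.5 in all 3 lines, beside 25.4% of all listed regions. KMS-11 minus RPMI8226 was -0.15 there, the smallest such difference among the 5 and close to the median of -0.14 over all listed regions.

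CHAC1 encodes an enzyme that breaks down glutathione, the main antioxidant of the cell. In the authors' deposited table its region had -1.32 in KMS-12, -0.59 in KMS-11 and -0.04 in RPMI8226. H3K27ac at CHAC1 was 59.8% lower with JQ1 than with DMSO in KMS-12, and 2.42% lower in RPMI8226. The RPMI8226 value was 827th of 838, while the KMS-12 value was 88th. By the mean of the lines CHAC1 was 371st, and it was 138th without RPMI8226 and 827th without KMS-12. CHAC1 had the widest spread between lines of the 3 genes outside TRIB3, 1.28 on the log2 scale, against a median of 0.52 over all listed regions.

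BBC3 encodes a BH3-only protein that frees the pore formers of the mitochondrial membrane. It had the weakest values of the 4 genes in KMS-11 and KMS-12, and in RPMI8226 it lay beside CHAC1. In the authors' deposited table the region was given -0.87 in KMS-12, -0.52 in KMS-11 and -0.04 in RPMI8226. Signal was 45.1% lower with JQ1 in KMS-12, 30.0% lower in KMS-11 and 2.66% lower in RPMI8226. The KMS-11 value was just inside the -0.5 limit, and among the values of the 5 regions the nearest to it on the other side was the -0.28 of the second TRIB3 region in RPMI8226, as the authors' deposited table gives them. By the mean of the 3 lines BBC3 was 756th of 838, and without RPMI8226 it was 390th.

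**Figure D2:**
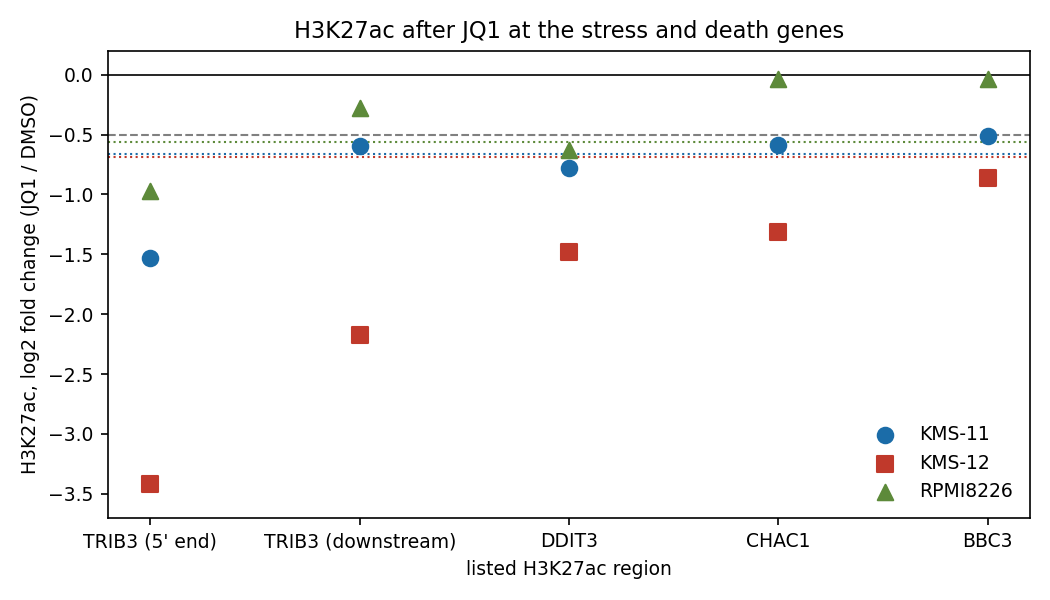
Log2 fold change of H3K27ac (JQ1 over DMSO) at each of the 5 regions, with 1 point per line; dotted lines are the medians of all 838 regions in the line of that colour, the dashed line is -0.5 and there are no replicates. KMS-12 is lowest and RPMI8226 highest at all 5 regions, with values between -3.42 and -0.87 in KMS-12 and between -0.97 and -0.04 in RPMI8226.

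The 5 regions shared the order of the lines. KMS-12 had the lowest value, then KMS-11, then RPMI8226, at 5 of 5 regions, and 30.4% of the table showed that order. KMS-12 was the lowest line in 44.6% of all regions and RPMI8226 the highest in 48.3%. The 2 TRIB3 regions share a locus, so the 5 are not independent of each other. The limit of -0.5 in 2 lines and the choice of the genes both used these values, so the shared order is a description.

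The size of the gap between lines varied more than its direction. KMS-12 minus RPMI8226 was -2.44 at the 5′ region of TRIB3, -1.89 at the second TRIB3 region, -1.28 at CHAC1, -0.85 at DDIT3 and -0.83 at BBC3, against a median of -0.17 over the table. Those differences ranked 4th, 8th, 34th, 92nd and 95th of 838. KMS-12 minus KMS-11 was -1.89 and -1.58 at the TRIB3 regions, the 3rd and 6th lowest of the table, and -0.73 at CHAC1, -0.70 at DDIT3 and -0.35 at BBC3. Among the 4 genes, TRIB3 thus had the KMS-12 values furthest below those of the other lines. With 1 sample per line and treatment, a line and its pair of cultures cannot be told apart.

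**Figure D3:**
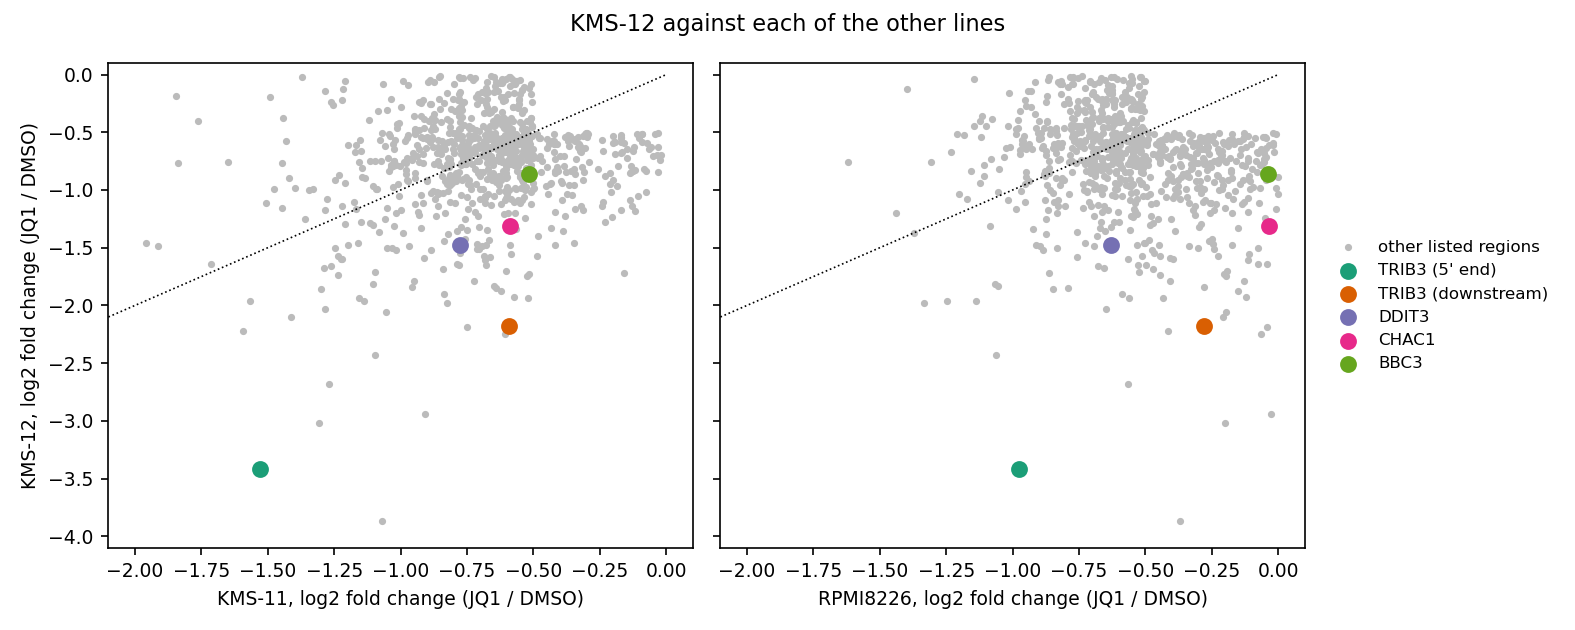
Log2 fold change of H3K27ac (JQ1 over DMSO) in KMS-12 on the vertical axis against KMS-11 (left) and RPMI8226 (right), with 1 point per listed region; the dotted line marks equal values and the axes differ in scale. All 5 coloured regions lie below the line, and the empty corner above -0.5 in both lines comes from the filter of the table.

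The regions were also counted past a threshold in each line. In KMS-12 all 5 regions were below -0.5, as was 77.7% of the table. In KMS-11 all 5 were, beside 83.4%, and in RPMI8226 2 of 5 were, beside 64.3%. Below -1 there were 4 of 5 in KMS-12 (21.2% of the table), 1 of 5 in KMS-11 (13.5%) and 0 of 5 in RPMI8226 (4.42%). The remaining 3 regions, the second one of TRIB3 and those of CHAC1 and BBC3, passed -0.5 in KMS-11 and KMS-12 and not in RPMI8226, a class of 35.7% of the table. These shares belong to the same values that chose the genes, and nothing is read from them.

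The 5 regions were also set against the middle of the table, because every listed value is negative. The median over all regions was -0.69 in KMS-12, -0.66 in KMS-11 and -0.56 in RPMI8226. Relative to these, and in the same order of lines, the 5′ region of TRIB3 was at -2.73, -0.86 and -0.41. DDIT3 was at -0.79, -0.11 and -0.07, and so was furthest from the middle in KMS-12. The second TRIB3 region was at -1.49, 0.07 and 0.28, and CHAC1 was at -0.63, 0.07 and 0.53. BBC3 was at -0.18, 0.15 and 0.52. In KMS-11 and RPMI8226 these last 3 regions were thus above the middle of the table, and in KMS-12 all 5 were below it.

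The members differed most from each other in KMS-12. Their values in the authors' deposited table spanned a range of 2.55 in KMS-12, 1.01 in KMS-11 and 0.94 in RPMI8226. Over all listed regions the lowest value was also deepest in KMS-12, at -3.86, against -1.96 in KMS-11 and -1.62 in RPMI8226. The wider range in KMS-12 was therefore not particular to these 5 regions. The median of the 5 was -1.48 in KMS-12, -0.59 in KMS-11 and -0.28 in RPMI8226, beside the medians of all regions given above. In KMS-11 and RPMI8226 the 5′ region of TRIB3 was lowest and DDIT3 came next, while in KMS-12 the second TRIB3 region came before DDIT3.

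**Figure D4:**
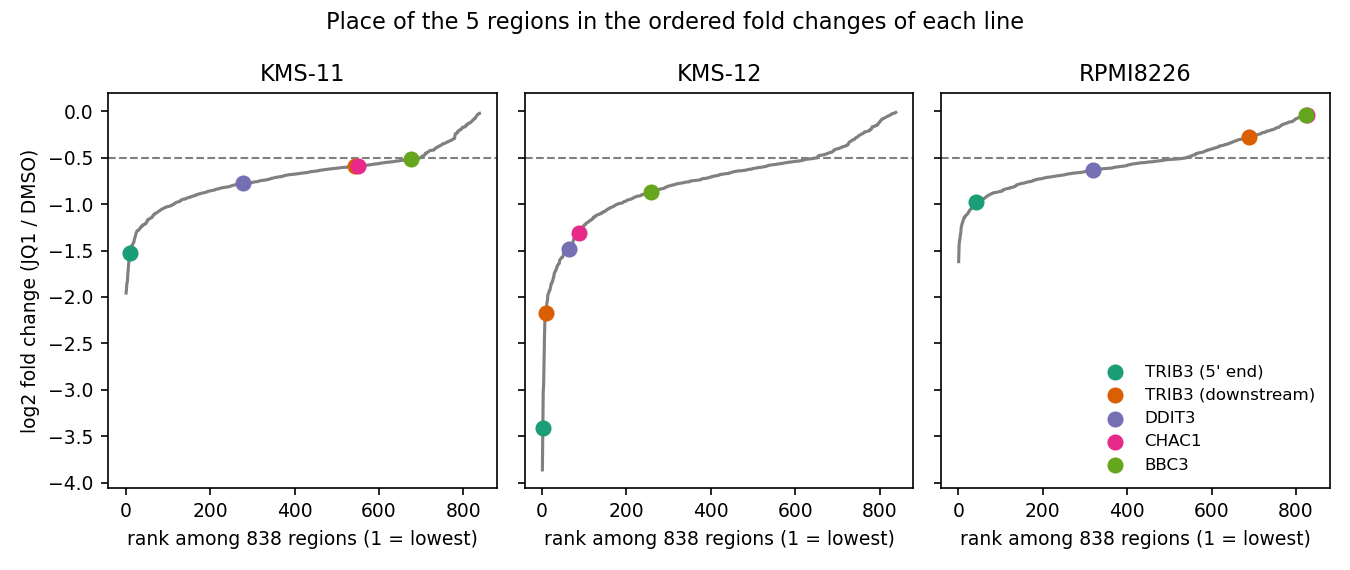
All 838 listed regions of each line in order of their log2 fold change of H3K27ac (JQ1 over DMSO), as a grey curve, with the 5 regions as coloured points; the dashed line is -0.5. In KMS-12 the points lie at ranks 2 to 258, in KMS-11 at 10 to 676 and in RPMI8226 at 43 to 827, where the CHAC1 point is hidden behind that of BBC3.

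Regions with the most similar values were found by the straight-line distance over the 3 log2 fold changes. Nothing was close to the 5′ region of TRIB3. The nearest were CLIP1, at 0.88, and the region shared by CEBPB and CEBPB-AS1, at 0.88. For the CEBPB region the authors' deposited table gave -3.86 in KMS-12, -1.07 in KMS-11 and -0.37 in RPMI8226. For the second TRIB3 region the nearest were KIF2C at 0.23, VEGFA at 0.29 and HPDL at 0.30. DDIT3 had an intergenic region closest to SLURP1 at 0.07, SLC16A7 at 0.10 and PGGHG at 0.14. CHAC1 lay nearest to APPL1, at 0.10, the region shared by TMPO and TMPO-AS1, at 0.16, and LINC-PINT, at 0.21. BBC3 lay nearest to the region shared by IRF2BPL and LOC107984638 and to PMM1, both at 0.05, and PIAS4, at 0.10. Each distance is over 3 values, and how common such distances are in the table was not examined.

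On the chromosome, the nearest neighbours of DDIT3 and CHAC1 were closer than the median distance of 404027 bases, and that of BBC3 was somewhat further. The closest listed region to DDIT3 was 288303 bases away at SHMT2, an enzyme of serine and glycine metabolism, for which the authors' deposited table had -1.59 in KMS-12, -0.91 in KMS-11 and -0.41 in RPMI8226. The closest to BBC3 was 437794 bases away at SLC1A5, a glutamine transporter, and the authors' deposited table gave it -1.48, -1.20 and -0.45 in the same order. CHAC1 had OIP5-AS1, an lncRNA gene, 330185 bases away, with -0.70, -0.52 and -0.21 per the authors' deposited table. On the other sides lay SLC16A7 for DDIT3, AVEN and CHRM5 for CHAC1, NOP53 for BBC3, and SOX12 with NRSN2-AS1 for TRIB3, 53169 to 6912862 bases away. KMS-12 was the lowest line at SHMT2, SLC1A5, OIP5-AS1, SLC16A7 and the region of AVEN and CHRM5. KMS-11 was the lowest at NOP53, with -0.63 in KMS-12, -0.75 in KMS-11 and -0.54 in RPMI8226 per the authors' deposited table. It was also the lowest at SOX12 with NRSN2-AS1, with -1.14, -1.22 and -0.31 per the authors' deposited table.

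Other genes of the same pathways were looked up in the table. Of 89 such genes apart from the 4, 10 had a listed region, beside 4.11% of all protein coding genes. Of these 10 genes, 2 had a region past -0.5 in all 3 lines, beside 25.4% of all listed regions. Their 10 regions had a median of -0.98 in KMS-12, -0.92 in KMS-11 and -0.56 in RPMI8226, beside the medians of the whole table above. The order KMS-12, KMS-11, RPMI8226, from lowest to highest, was seen in 4 of the 10, beside 30.4% of all listed regions. KMS-12 was the lowest line in 6, beside 44.6%. The 4 genes and these lists were chosen with the table known, so the difference between 5 of 5 and 4 of 10 was not tested.

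Upstream of CHOP, the stress kinases and core factors had regions at 2 of 11 genes. For ATF4 itself the authors' deposited table had -0.58 in KMS-12, -0.82 in KMS-11 and -0.65 in RPMI8226. There KMS-12 was the highest line, which was not so at any region of the 4 genes. PPP1R15B had -0.85, -0.03 and -0.95 per the authors' deposited table, with RPMI8226 lowest. The 4 eIF2 kinase genes, ATF3 and PPP1R15A had no listed region.

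Of the C/EBP genes, whose products pair with CHOP, 1 of 5 had a region. This was CEBPB, whose values are given above and whose region was shared with CEBPB-AS1. It was the only listed region lower than that of TRIB3 in KMS-12. Other ATF4 and CHOP targets had regions at 6 of 14 genes. DDIT4, which restrains mTORC1, was the only one of the 6 past -0.5 in all 3 lines, at -1.32 per the authors' deposited table in KMS-12, -1.02 in KMS-11 and -1.09 in RPMI8226. SESN2, another restraint on mTORC1, showed the order of lines of the 4 genes, with -1.52, -0.88 and -0.47 per the authors' deposited table. SLC3A2 showed it too, with -1.12, -0.95 and -0.14 per the authors' deposited table. STC2, PSAT1 and ERO1A did not, as STC2 was lowest in KMS-11 and ERO1A in RPMI8226, and PSAT1 was highest in KMS-11. The STC2 region was also assigned to LOC124901137.

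Few genes of the rest of the death machinery had a listed region, and as 4.11% of all protein coding genes had one, lists of this size show nothing about their absence. Of 8 BH3-only genes BBC3 alone had a region, and PMAIP1 and BCL2L11, which have also been linked to stress-induced death, had none. None of 8 BCL2 guardians and pore formers, of 7 death receptor genes or of 10 caspase and apoptosome genes had one. Of 14 genes of p53 and its targets, GADD45A, a stress gene of growth arrest, joined BBC3. The authors' deposited table gave GADD45A -1.50 in KMS-12, -1.25 in KMS-11 and -0.30 in RPMI8226, again in the order of the 4 genes. TRIB3 was the only one of 7 genes of the Tribbles and AKT list with a region, CHAC1 the only one of 9 glutathione genes, and none of 3 BET genes had one. A gene without a listed region did not pass the filter or was not measured, and the table does not separate these.

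**Figure D5:**
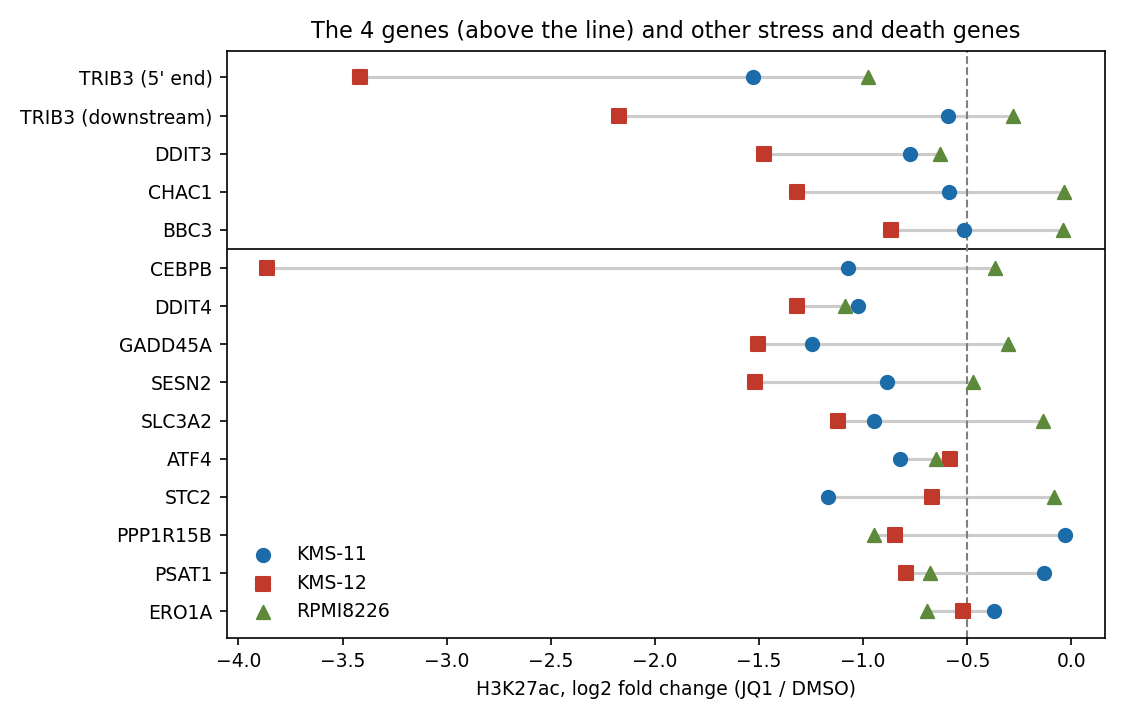
Log2 fold change of H3K27ac (JQ1 over DMSO) in each line at the 5 regions (above the line) and at the 10 regions of other stress and death genes, ordered by their mean; the grey bar joins the lowest and highest line and the dashed line is -0.5. KMS-12 is lowest at all 5 regions above the line and at 6 of the 10 below it, while ATF4 shows the narrowest spread, with KMS-12 highest.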

How the data were processed

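H3K27ac was profiled by ChIP-seq with a Diagenode antibody, per the labels. The log2 fold changes and the number of lines per region were made by the authors and deposited as 1 table. The submitters' processing notes name DESeq2, MACS2, hg38 and GRCh38.p13 without saying what each was used for. Aligner, peak calling settings and library scaling are likewise not stated. A difference in scaling between the JQ1 and DMSO libraries would shift all values of a line together.

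Regions were placed on RefSeq genes of GRCh38.p14, which shares chromosome coordinates with hg38, in Python 3.11.15 with pandas 2.3.3. Width counts both end positions. Strand and starts came from the RefSeq promoter table, in which all 4 genes matched. Motifs were exact letter matches on both strands. A percentage of signal is 2 to the power of the fold change. No test was run, since each line has 1 value per region and the table was filtered on it. The assignment and motif search were tested on simulated data. The genes and lists were chosen with earlier results of these data known. The text names the regions of the 4 genes, their neighbours on the chromosome, up to 3 regions nearest in value, and every listed gene of the other lists. One neighbour in value is not reported here.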

Additional observations from a re-analysis of the deposited data

How the results depend on the processing

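No paired analysis was possible because each line has 1 deposited fold change and no value of a single sample. Within 1 kb of a gene there were 4 regions in place of 5, the second TRIB3 region being lost, and within 10 kb or with protein coding genes only there were 5. At a limit of -0.75 in all 3 lines 1 region passed and at -1 there were 0, against 2 at -0.5.

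The rank by mean depended on single lines. By the median of the lines the ranks were 5 for the 5′ region of TRIB3, 563 for the second, 194 for DDIT3 and 569 for CHAC1, against 1, 51, 68 and 371 by the mean. Leaving out a line in turn, the ranks ran from 1 to 8 for the 5′ region of TRIB3, from 21 to 696 for the second, from 54 to 249 for DDIT3, from 138 to 827 for CHAC1 and from 390 to 838 for BBC3. The highest rank came without KMS-12 for each of the 5 regions, although for BBC3 that rank, 838, was close to its 756 by the mean. Without RPMI8226 the ranks were 138 for CHAC1, 390 for BBC3 and 30 for the second TRIB3 region.

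With each line centred on its median over all regions, the median of the 5 means was -0.32 in place of -0.96. The means were then -0.38 at the second TRIB3 region, -0.32 at DDIT3, -0.0083 at CHAC1 and 0.17 at BBC3, which changed sign. The setting per region was added after seeing the data, as was the median of the means without the second TRIB3 region, which was -0.80. The shortened ER stress element, found in 1 of the 4 genes against 0 for the whole, was also added then. On the strand of the gene alone, 0 of the 4 genes had TGATGNAA. The other settings moved no value by over 1.5 times.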
